A study of Mus musculus with 12 samples.

Results

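Genes of the CREB and cAMP pathway were described across 12 arrays of primary mouse embryonic fibroblasts kept in normoxia or hypoxia, in lines whose CBP and p300 either retained or lost their CH1 domain. The set holds 9 genes, namely Creb1, Crem, Sik1, Nr4a1, Nr4a2, Nr4a3, Pde4b, Pde4d and Areg, and its members were all probe sets that the annotation of the Affymetrix Mouse430_2 array gives to these symbols. This gave 30 probe sets in 8 genes, out of 45037 on the array after removal of controls. Areg, which encodes the EGF receptor ligand amphiregulin, had no assigned probe set and has no value here. A mean signal under 100 over the 12 arrays counted as low, which left 13 member probe sets in 7 genes, beside 18903 over the whole array. All 3 probe sets of Nr4a3 were low. The probe sets nearest to that limit were 1450750_a_at of Nr4a2, with a mean of 99.76, and 1422474_at of Pde4b, with a mean of 123.4.

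The cells were made from embryos at e14.5, infected at passage 3 with an adenovirus carrying Cre, expanded, and then held for 6 h at 21% O2 (normoxia) or 0.1% O2 (hypoxia), with 5% CO2 and 37 °C in both. The 3 control lines carried 1 conditional knockout allele and otherwise unmodified CBP (Crebbp) and p300 (Ep300): flox1 was CBP +/flox, and flox2_1 and flox2_2 were p300 +/flox. The 3 triCH1 lines carried 3 alleles with a deleted CH1 domain and 1 conditional allele: triCH1flox1 was CBP CH1/flox and p300 CH1/CH1, and triCH1flox2_1 and triCH1flox2_2 were CBP CH1/CH1 and p300 CH1/flox. All 6 lines thus shared exposure to Cre and 1 floxed allele, so the controls were not wild type. Each line gave 1 normoxia and 1 hypoxia array, hence 4 groups of 3 arrays. The labels do not say whether lines of 1 genotype came from separate embryos, nor how complete the recombination was, so p-values measure the spread between these samples only.

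CREB, the product of Creb1, binds the cAMP response element (CRE) in promoters. When cAMP activates protein kinase A, CREB is phosphorylated in its kinase-inducible domain, which then binds the KIX domain of CBP and p300, a different domain from CH1. CH1, by contrast, is a contact site of the hypoxia-inducible factor HIF. Many CREB targets are rapidly induced genes, and several feed back on the pathway: PDE4 enzymes degrade cAMP, ICER made from Crem represses CRE promoters, and SIK1 phosphorylates the CREB coactivators of the CRTC family.

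Median signals of the arrays lay between 57.2 and 76.1 in units of the scaled intensity, and array pairs correlated with Pearson's r of 0.93 to 0.976 in log2 signal. The summed signal of 10 fibroblast markers was 147255.6 to 202281.9 over the arrays, and all 10 were above the limit. None of 5 endothelial markers was above it, with sums of 97.3 to 220.6. Of 5 markers each, 2 macrophage, 2 epithelial, 2 skeletal muscle and 3 neural ones were above the limit, with summed signals of 327.4 to 555.7, 244.7 to 983.8, 7999.9 to 18359.2 and 1191.8 to 1982.5. In the muscle list Acta1 (7853.1 to 17827.8) and Des (22.7 to 477.2) were above it on average, while the muscle regulators Myod1 and Myog and the myosin Myh3 were low. The muscle sum was 12240.8 to 18359.2 in control normoxia and 15451.6 to 17435.6 in control hypoxia, and 7999.9 to 13822.6 and 10217.9 to 13689.9 in triCH1 normoxia and hypoxia. Its part in the member values was not tested. Among the 13 tested member probe sets, the flox2_1 normoxia array was the highest of all arrays in 5, and it was the highest in 12.1% of all tested probe sets. It also had the lowest scale factor in the submitters' notes, 2.57 in a range up to 4.28. The part of this array's scaling in the member values was not tested. Values without this array are given for some results only, and other member values may also change direction without it.

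RefSeq promoter windows on GRCm38.p6 differed between these genes in the CRE letters they hold. In the 250 bases before each annotated start, the CRE half-site was searched as TGACG or its reverse complement CGTCA, and the full element as TGACGTCA, which contains 2 overlapping half-sites. The table held 7 of the 9 genes with 10 starts, and Crem and Sik1 are not shown. Nr4a1, Nr4a2 and Nr4a3 each had 4 half-sites, a number reached by 0.137% of 32851 promoter windows of this length, whereas 17.8% had at least 1. The windows of these 3 nuclear receptors are shown because they carry the most half-sites. That of Pde4d is shown because its measured probe set was the only tested member higher in hypoxia in all 6 lines. This window holds no half-site, but it is the only Pde4d start listed. The sources used here do not tie the probe set to this start, and sequence outside the window was not searched. Sequences run 5′ to 3′ along the gene, up to the base before the start, and capitals mark the half-sites. The windows are chr15:101266596-101266845 (plus strand) for Nr4a1, chr2:57124004-57124253 (minus strand) for Nr4a2, chr4:48045055-48045304 (plus strand) for Nr4a3 and chr13:108653927-108654176 (plus strand) for Pde4d.
Nr4a1: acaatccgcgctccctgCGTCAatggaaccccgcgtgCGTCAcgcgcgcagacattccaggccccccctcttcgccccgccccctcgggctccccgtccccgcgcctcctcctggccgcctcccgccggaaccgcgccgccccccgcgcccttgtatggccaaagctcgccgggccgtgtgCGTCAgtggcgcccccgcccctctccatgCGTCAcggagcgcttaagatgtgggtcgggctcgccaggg
Nr4a2: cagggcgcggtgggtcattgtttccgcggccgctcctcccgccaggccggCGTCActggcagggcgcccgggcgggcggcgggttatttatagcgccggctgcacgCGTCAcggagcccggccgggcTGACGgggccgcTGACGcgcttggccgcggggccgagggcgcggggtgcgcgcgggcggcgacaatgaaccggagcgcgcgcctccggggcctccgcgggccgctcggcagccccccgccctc
Nr4a3: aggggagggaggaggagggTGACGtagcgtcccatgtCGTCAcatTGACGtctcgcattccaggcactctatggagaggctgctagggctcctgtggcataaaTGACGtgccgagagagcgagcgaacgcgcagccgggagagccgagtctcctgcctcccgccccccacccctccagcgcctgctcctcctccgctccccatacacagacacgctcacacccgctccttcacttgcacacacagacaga
Pde4d: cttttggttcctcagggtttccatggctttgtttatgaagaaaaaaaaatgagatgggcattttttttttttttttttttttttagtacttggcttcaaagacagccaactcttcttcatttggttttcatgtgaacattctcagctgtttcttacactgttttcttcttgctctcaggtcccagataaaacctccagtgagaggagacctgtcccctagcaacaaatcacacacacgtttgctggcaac

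In Nr4a1 the half-sites began 233, 213, 69 and 40 bases before the start, in Nr4a2 200, 144, 123 and 111 bases before it, and in Nr4a3 231, 213, 205 and 147 bases before it. Areg had 3 half-sites, of which those at 61 and 58 bases formed its full CRE, an element found in 1.55% of all windows. The first of 4 Pde4b starts had 1 half-site, 34 bases before it. The other 3 Pde4b starts, the Creb1 window and the Pde4d window had none of these letters. The core letters of a HIF site, ACGTG or GCGTG on either strand, occurred in 38.6% of all windows. They were present in those of Nr4a1, Nr4a2, Nr4a3 and Pde4d and at the first Pde4b start, and could share bases with a CRE half-site. A match is a description of the sequence and not a bound site.

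No member gene passed the test in any comparison. Log2(signal + 20) was compared with limma over all 18903 tested probe sets, with a call at a Benjamini-Hochberg adjusted p under 0.05, and 0 of 13 member probe sets were called in each of the 6 contrasts. The share called over the whole array was 0.831% for the hypoxia response in control lines, 0.635% in triCH1 lines and 1.75% for the mean response over both line types. It was 0% for the difference between the responses, 0.00529% for triCH1 against control in normoxia and 0.0741% in hypoxia, so 13 probe sets would hold few calls at these rates. With the line as a block, 0 of 13 members were called as well. For the hypoxia contrasts this block compares the 2 arrays of each line. For the genotype contrasts the line was a random block, since each line has only 1 genotype. The shares over the whole array were then 1.4%, 1%, 0%, 0.0159%, 0.0952% and 3.67% for the control response, the triCH1 response, their difference, genotype in normoxia, genotype in hypoxia and the mean response. At an unadjusted p under 0.05 without the block, the members counted 0 in control lines, 0 in triCH1 lines and 0 for the difference. They counted 0 for genotype in normoxia, 1 for genotype in hypoxia (Crem) and 1 for the mean response (Pde4d). The shares over the whole array at that level, without the block, were 5.98%, 6.25%, 0.693%, 7.56%, 7.97% and 11.3% in the same order. With the line as a block, 1 member probe set was under that level in control lines (Pde4d). In triCH1 lines there were 3 (Sik1, Nr4a2 and Pde4d), and for the difference 1 (Nr4a2). Genotype in normoxia had 0, genotype in hypoxia 1 (Crem) and the mean response 2 (Sik1 and Pde4d). None of these was called after adjustment. The share of all tested probe sets at that unadjusted level with the block is not given here. The shares without the block are no measure for these counts, which are therefore not read as a result. The median log2 change of the members was −0.07 in control lines and −0.01 in triCH1 lines, beside −0.04 and −0.02 for all tested probe sets. For triCH1 against control it was −0.20 in normoxia and 0.03 in hypoxia, beside 0.02 and 0.03. The 95% intervals of a change within 1 line type or 1 oxygen level reached 0.42 log2 units to either side for the Creb1 probe set 1423402_at and 1.36 for Sik1, so the missing calls do not show that these genes stayed equal.

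**Figure D1:**
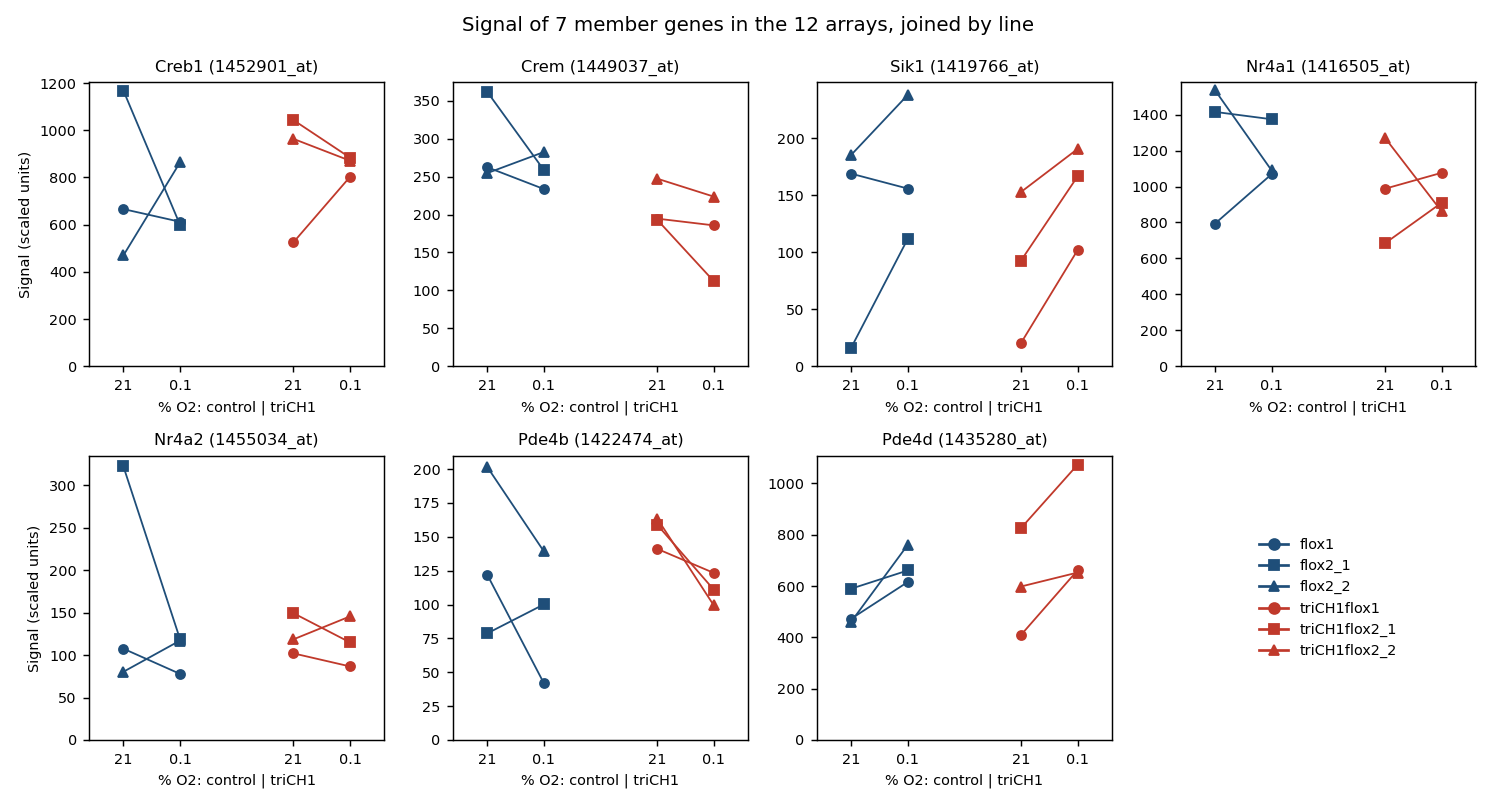
Scaled signal (linear axis from 0) of the highest probe set of 7 genes in the 12 arrays, by O2 level, with control lines in blue and triCH1 lines in red and a line joining the 2 arrays of each cell line. Pde4d slopes upward in all 6 lines, Crem lies lower in the 3 triCH1 lines at each O2 level, and at 21% O2 a high point stands out for Nr4a2 (322.4 in flox2_1) and 2 low points for Sik1 (16.0 in flox2_1 and 20.4 in triCH1flox1).

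Creb1, the transcription factor itself, had its highest signal in probe set 1452901_at. In normoxia it read 666.1, 1168.4 and 469.7 in flox1, flox2_1 and flox2_2, and 525.1, 1043.5 and 963.8 in triCH1flox1, triCH1flox2_1 and triCH1flox2_2. In hypoxia it read 612.2, 598.9 and 864.4 in the same control lines and 802.9, 883.9 and 871.1 in the triCH1 lines. The normoxia values spread over a wide range in both line types, and the groups overlapped at each O2 level and in each line type. The group means ran from 692 ± 150 in control hypoxia through 768 ± 360 in control normoxia and 844 ± 279 in triCH1 normoxia to 853 ± 43.5 in triCH1 hypoxia (SD, n = 3 arrays each), and each neighbouring pair differed by less than the larger of its SDs. The mean response to hypoxia was 0.00 ± 0.22 log2 units (SE), with an adjusted p of 0.998 in limma. The genotype difference was 0.17 ± 0.31 in normoxia and 0.31 ± 0.31 in hypoxia, with adjusted p of 0.987 and 0.817.

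The other Creb1 probe sets did not move as one with it. Over the 12 arrays their Pearson correlation with 1452901_at in log2 signal ranged from 0.18 (1421582_a_at) to 0.65 (1428755_at), a description of arrays that share lines. Probe set 1423402_at read 427.4, 580.1 and 365.4 in control normoxia against 355.3, 361.7 and 342.2 in triCH1 normoxia. Those groups did not overlap, whereas in hypoxia the control values of 314.7, 413.6 and 345.1 enclosed the triCH1 values of 372.8, 365.8 and 356.4. The normoxia difference was −0.33 ± 0.20 log2 units with an adjusted p of 0.798 in limma. For triCH1 against control in normoxia, 2 of 13 member probe sets had no overlap between the groups, which 10.8% of all tested probe sets had in either direction. A sixth probe set of Creb1, 1421583_at, stayed between 0.4 and 32.1.

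Crem, whose products include both activators and the repressor ICER, had lower signals in the triCH1 lines at each O2 level, though the difference did not pass the test. Probe set 1449037_at read 262.4, 361.8 and 254.6 in the control lines and 194.6, 193.1 and 247.3 in the triCH1 lines in normoxia. In hypoxia it read 233.6, 258.6 and 282.4 in the control lines and 185.7, 112.0 and 223.6 in the triCH1 lines. Every triCH1 value was under every control value of the same O2 level, with the gap between flox2_2 and triCH1flox2_2 the narrowest in normoxia. Of all tested probe sets, 1.77% lay lower in triCH1 without overlap at both O2 levels. Group means ran from 293 ± 59.8 in control normoxia through 258 ± 24.4 in control hypoxia and 212 ± 30.9 in triCH1 normoxia to 174 ± 56.7 in triCH1 hypoxia (SD, n = 3 arrays each), and neighbours differed by less than the larger of their SDs except control hypoxia and triCH1 normoxia, which were 46.5 apart. The genotype difference was −0.43 ± 0.25 log2 units in normoxia (adjusted p = 0.802, limma) and −0.56 ± 0.25 in hypoxia (unadjusted p = 0.043, adjusted p = 0.619, limma). Leaving out single arrays or lines moved the hypoxia difference of Crem between −0.75 and −0.31 and turned it in no case.

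The second measured Crem probe set, 1418322_at, read 161.8, 176.8 and 189.4 in the control lines and 115.7, 116.1 and 126.7 in the triCH1 lines in hypoxia, again without overlap. For triCH1 against control in hypoxia, these 2 of 13 member probe sets had no overlap, beside 13.2% of all tested ones. In normoxia the control values of 153.4, 302.9 and 110.0 overlapped the triCH1 values of 99.3, 187.4 and 114.2. Its difference was −0.38 ± 0.33 log2 units in normoxia and −0.49 ± 0.33 in hypoxia, with adjusted p of 0.917 and 0.733 in limma. Without the flox2_1 normoxia array the normoxia difference of this Crem probe set was −0.01. The 2 Crem probe sets correlated with r = 0.61 over the 12 arrays. Their mean responses to hypoxia were −0.23 ± 0.18 and −0.04 ± 0.23 log2 units, with adjusted p of 0.716 and 0.975 in limma, and 1449037_at was lower in 5 of 6 lines. The other 2 Crem probe sets stayed between 1.9 and 59.4, and the sources used here do not say which probe sets would detect ICER.

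Sik1, the salt-inducible kinase that CREB induces and that restrains CRTC coactivators, was higher in hypoxia in 5 of 6 lines. Probe set 1419766_at read 169.0, 16.0 and 185.3 in the control lines and 20.4, 92.7 and 152.9 in the triCH1 lines in normoxia. In hypoxia the control lines gave 155.9, 111.7 and 238.0 and the triCH1 lines gave 102.0, 166.7 and 190.7. The groups overlapped throughout, and 2 low normoxia arrays, flox2_1 and triCH1flox1, gave the steepest slopes. By line, the response was −0.10 in flox1, 1.87 in flox2_1, 0.33 in flox2_2, 1.59 in triCH1flox1, 0.73 in triCH1flox2_1 and 0.29 in triCH1flox2_2 log2 units. The mean response was 0.78 ± 0.45 with an adjusted p of 0.574 in limma, and 0.155 with the line as a block (unadjusted p = 0.0132), in a range of 0.155 to 0.803 over the alternatives for Sik1. Without the flox2_1 normoxia array the mean response of Sik1 was 0.38, and over the omissions of 1 array or line it ran up to 1.01. Without the triCH1flox1 normoxia array it was 0.49, and the triCH1 response of 0.87 ± 0.63 was 0.27. The control response of Sik1, 0.70 ± 0.63, rested on 1 array, since without flox2_1 in normoxia it was −0.12. Group means ran from 88.7 ± 66.3 in triCH1 normoxia through 123 ± 93.4 in control normoxia and 153 ± 45.9 in triCH1 hypoxia to 169 ± 64.1 in control hypoxia (SD, n = 3 arrays each), and neighbours differed by less than the larger of their SDs. The other Sik1 probe set, 1459601_at, was also higher in hypoxia in 5 of 6 lines, but at signals of only 2.2 to 64.8. In a fit without the limit on low signals its mean response was 0.57 ± 0.27 (adjusted p = 0.65, limma). Its genotype difference was −0.73 ± 0.38 in normoxia (adjusted p = 0.919, limma). In hypoxia it was −0.85 ± 0.38 (unadjusted p = 0.0412, adjusted p = 0.722, limma).

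The NR4A orphan nuclear receptors are immediate early genes and textbook CREB targets, and their promoters carry the half-sites shown above. Nr4a1 (Nur77) had 1 probe set, 1416505_at, which read 793.0, 1415.6 and 1537.3 in the control lines and 987.7, 683.6 and 1272.2 in the triCH1 lines in normoxia. In hypoxia it read 1068.4, 1374.6 and 1090.4 in the control lines and 1076.3, 909.3 and 862.6 in the triCH1 lines. In each comparison the groups overlapped, and the lines went opposite ways in hypoxia, 3 of 6 higher and 3 of 6 lower. The mean response was −0.02 ± 0.18 log2 units, with a 95% interval from −0.42 to 0.37 and an adjusted p of 0.985 in limma. Response by line ran from −0.55 in triCH1flox2_2 to 0.42 in flox1. The triCH1 lines were lower by values of −0.33 ± 0.26 in normoxia and −0.30 ± 0.26 in hypoxia, with adjusted p of 0.897 and 0.787. Group means were 1250 ± 399 and 1180 ± 171 in control normoxia and hypoxia and 981 ± 294 and 949 ± 112 in triCH1 normoxia and hypoxia (SD, n = 3 arrays each), and in order of level neighbours differed by less than the larger of their SDs.

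Nr4a2 (Nurr1) had 6 probe sets, of which 2 were above the limit and gave different pictures. Probe set 1455034_at read 107.6, 322.4 and 80.4 in control normoxia, 77.9, 118.7 and 117.2 in control hypoxia, 102.1, 149.5 and 118.6 in triCH1 normoxia and 86.7, 115.0 and 145.7 in triCH1 hypoxia. The flox2_1 normoxia array was far above the other 11, among which the groups overlapped. The control response of −0.41 ± 0.40 log2 units became 0.12 without that array. Its omission also turned the genotype difference in normoxia, from −0.20 ± 0.40 to 0.33, and the mean response, from −0.25 ± 0.28 to 0.02. Probe set 1450749_a_at read 26.3, 128.1 and 150.3 in control normoxia, 111.3, 172.1 and 110.0 in control hypoxia, 225.0, 133.0 and 161.7 in triCH1 normoxia and 114.2, 120.7 and 44.0 in triCH1 hypoxia. The triCH1 lines did not overlap between O2 levels, whereas the control lines did. In the hypoxia response of triCH1 lines, 2 of 13 member probe sets did not overlap, beside 11.9% of all tested ones. The response of 1450749_a_at was 0.50 ± 0.47 in control lines and −0.83 ± 0.47 in triCH1 lines, and the difference of −1.33 ± 0.66 had an unadjusted p of 0.0644 and an adjusted p of 1 in limma. The flox1 normoxia array, at 26.3, carried the control value, which was −0.10 without it. The 2 Nr4a2 probe sets correlated with r = −0.04 over the 12 arrays. The probe set just under the limit, 1450750_a_at, read 118.0, 143.2 and 143.9 in triCH1 normoxia and 50.8, 13.6 and 115.9 in triCH1 hypoxia, without overlap, and its control values ran from 80.3 to 117.5. In the fit without the limit its response was −1.17 ± 0.44 in triCH1 lines (unadjusted p = 0.0165, adjusted p = 0.765, limma) and −0.05 ± 0.44 in control lines, a difference of −1.12 ± 0.62 (adjusted p = 1). The other 3 Nr4a2 probe sets had means of 46.3 to 92.1.

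Nr4a3 (Nor1) was low throughout in these fibroblasts, with signals of 2.1 to 108.1 over its 3 probe sets. The highest, 1438796_at, read 67.1, 59.3 and 73.9 in control normoxia, 33.7, 108.1 and 83.9 in control hypoxia, 53.9, 39.2 and 22.4 in triCH1 normoxia and 65.4, 47.5 and 60.4 in triCH1 hypoxia. In normoxia the triCH1 values were all under the control values, and in hypoxia they overlapped. In a fit without the limit on low signals, the normoxia difference of Nr4a3 was −0.60 ± 0.42 log2 units with an adjusted p of 0.990 in limma. Such a low signal has no order that this array can resolve well, and it does not show that the gene was silent.

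Pde4d and Pde4b encode phosphodiesterases that hydrolyse cAMP, and the measured probe sets of the pair leaned in opposite directions in hypoxia. Pde4d probe set 1435280_at read 472.3, 589.6 and 460.3 in control normoxia and 615.7, 660.8 and 760.5 in control hypoxia, which did not overlap. It read 409.5, 826.0 and 598.3 in triCH1 normoxia and 662.0, 1073.5 and 652.8 in triCH1 hypoxia, which overlapped, since the lines differed in level at 21% O2. In the response of control lines this was the only 1 of 13 member probe sets without overlap, beside 11.6% of all tested ones. Within lines, Pde4d was higher in hypoxia in 6 of 6, by 0.37, 0.16 and 0.70 log2 units in flox1, flox2_1 and flox2_2 and by 0.67, 0.37 and 0.12 in triCH1flox1, triCH1flox2_1 and triCH1flox2_2. Of all tested probe sets, 5.14% were higher in all 6 lines. The mean response was 0.40 ± 0.18 with an unadjusted p of 0.0443 and an adjusted p of 0.424 in limma. With the line as a block these were 0.00703 and 0.113, so Pde4d did not pass the test in either fit, and the adjusted p ranged from 0.113 to 0.848 over its alternatives.

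The response of Pde4d was 0.41 ± 0.25 in control and 0.39 ± 0.25 in triCH1 lines, and the difference of −0.02 ± 0.36 had a 95% interval from −0.80 to 0.75, which leaves room for sizeable differences either way. Its genotype differences were 0.21 ± 0.25 in normoxia and 0.19 ± 0.25 in hypoxia, with adjusted p of 0.967 and 0.870 in limma. Group means ran from 507 ± 71.4 in control normoxia through 611 ± 209 in triCH1 normoxia and 679 ± 74.1 in control hypoxia to 796 ± 240 in triCH1 hypoxia (SD, n = 3 arrays each), and each neighbouring pair differed by less than the larger of its SDs. The other Pde4d probe set, 1459311_at, was also higher in hypoxia in 6 of 6 lines, but at signals of only 1.9 to 52.8. Leaving out single arrays or lines moved the mean response of 1435280_at, Pde4d, between 0.27 and 0.52.

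Pde4b probe set 1422474_at was lower in hypoxia in 5 of 6 lines. It read 122.0, 78.7 and 201.6 in control normoxia and 41.9, 100.1 and 139.2 in control hypoxia, where flox2_1 went the other way. It read 141.1, 158.9 and 163.5 in triCH1 normoxia and 123.3, 110.9 and 99.3 in triCH1 hypoxia, without overlap. The mean response was −0.44 ± 0.26 log2 units with an adjusted p of 0.593 in limma, and the responses of −0.46 ± 0.37 in control and −0.41 ± 0.37 in triCH1 lines differed by 0.05 ± 0.52. Leaving out single arrays or lines moved the mean response of Pde4b between −0.63 (without line flox2_1) and −0.25 (without the flox1 hypoxia array) and the control response between −0.84 and −0.08, for the same omissions. Group means were 134 ± 62.3, 93.7 ± 49.0, 154 ± 11.8 and 111 ± 12.0 in normoxia and hypoxia of the control lines and then of the triCH1 lines (SD, n = 3 arrays each). A second Pde4b probe set under the limit, 1422473_at, read 88.0, 111.0 and 109.2 in control normoxia against 16.6, 24.3 and 54.4 in control hypoxia, without overlap. It read 121.0, 97.6 and 109.1 in triCH1 normoxia and 6.5, 29.5 and 137.1 in triCH1 hypoxia, where triCH1flox2_2 alone was not lower. In the fit without the limit its mean response was −1.22 ± 0.38 log2 units, with an unadjusted p of 0.00519 and an adjusted p of 0.281 in limma, the lowest adjusted p of any of the 30 member probe sets in any contrast of that fit. There 0.662% of all 45037 probe sets were called for the mean response. The other 4 Pde4b probe sets had means of 8.20 to 58.1.

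**Figure D2:**
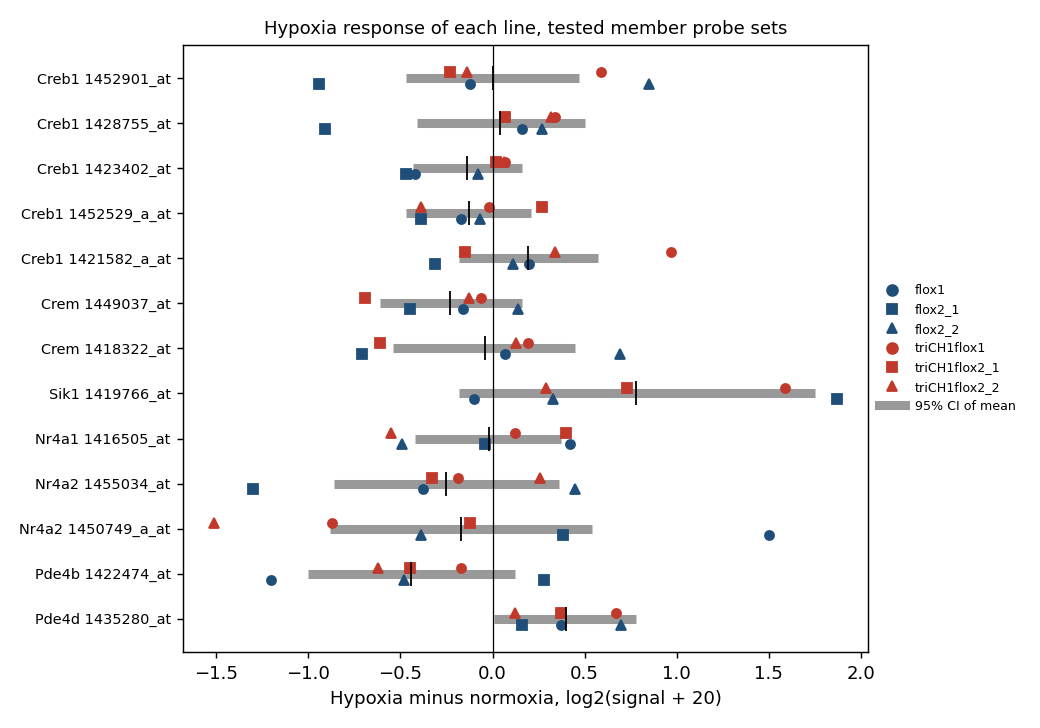
Hypoxia minus normoxia in log2(signal + 20) for the 13 tested member probe sets, 1 point per cell line (control lines blue, triCH1 lines red), with the mean as a tick and its 95% interval from limma as a grey bar. The Pde4d bar is the only one that clears 0, from 0.01 to 0.78 before adjustment over all probe sets, and Sik1 and Nr4a2 1450749_a_at have the widest scatter between lines.

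Counted over the set, 6 of 13 member probe sets went 1 way in at least 5 of 6 lines, against 36.5% of all tested probe sets. They were higher for Creb1 1428755_at, Sik1 and Pde4d and lower for Creb1 1452529_a_at, Crem 1449037_at and Pde4b. Over the whole array 14.6% were higher and 21.9% lower in at least 5 lines. None of the 13 was lower in all 6 lines, which 7.23% of all tested probe sets were.

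**Figure D3:**
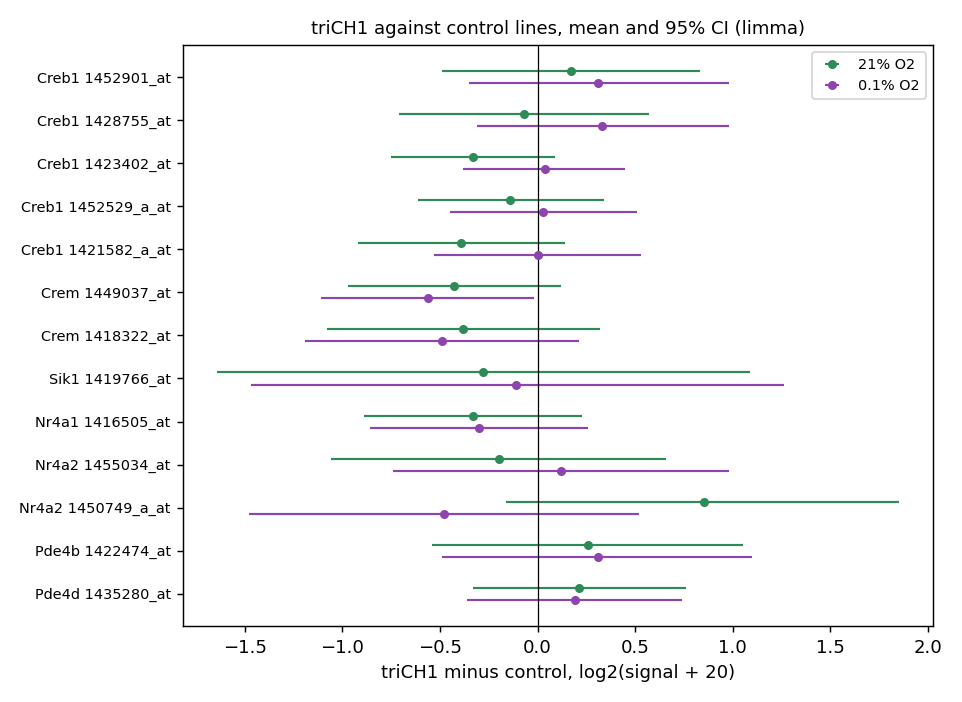
Difference of triCH1 minus control lines in log2(signal + 20) for the 13 tested member probe sets at 21% O2 (green) and 0.1% O2 (purple), mean and 95% interval from limma, 3 lines against 3. The only interval that excludes 0 before adjustment is that of Crem 1449037_at at 0.1% O2, from −1.11 to −0.02.

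The upstream part of the pathway was read from lists of other genes, each gene read at the probe set of highest mean signal. Of 19 Gs-coupled receptors and adenylyl cyclases, which raise cAMP, 15 had a probe set and 7 were above the limit. Of 14 genes of protein kinase A and its inhibitors, anchors and the cAMP sensor Epac, 13 had a probe set and 11 were above it. Of 10 other cAMP phosphodiesterases, 9 had a probe set and 5 were above it. None of these genes was called in any of the 6 contrasts. The median mean response was −0.03, −0.03 and 0.13 log2 units in the 3 lists, beside −0.03 for all tested probe sets. Prkaca, the main catalytic subunit of protein kinase A, had a mean response of −0.10 ± 0.11, and Prkar1a, a regulatory subunit, −0.03 ± 0.09, with adjusted p of 0.836 and 0.956 in limma.

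Of 8 genes of the CREB family, the CRTC coactivators, the SIK kinases and CBP and p300, 7 were above the limit and none was called, while Atf1 had no assigned probe set. All 7 had a negative mean response, with a median of −0.16 log2 units beside −0.03 for all tested probe sets. Single lines went both ways: Crtc3 was higher in hypoxia in 3 lines, Crebbp, Crtc1 and Crtc2 in 2, and Ep300 in 1. For the CRTC genes it was −0.16 ± 0.24 (Crtc1), −0.11 ± 0.35 (Crtc2) and −0.23 ± 0.16 (Crtc3), with adjusted p of 0.883, 0.954 and 0.665 in limma. Crebbp and Ep300, the genes modified in these lines, had mean responses of −0.05 ± 0.29 and −0.32 ± 0.30 and differed between line types in hypoxia by 0.04 ± 0.40 and 0.20 ± 0.43. By line, Crebbp read 698.7 to 882.2 in flox1 and triCH1flox1, whose floxed allele is in Crebbp, and 922.2 to 1852.4 in the other lines. Ep300 overlapped in this split, with 412.3 to 836.4 against 206.7 to 539.5. The cause of the Crebbp split was not tested. The probe sets of Crebbp and Ep300 cannot check the deletions, because the sources used here do not place the probes relative to the deleted exons.

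Among other known CREB targets, 3 genes rose in hypoxia. The list had 31 symbols, with Cyr61 and Ccn1 naming 1 gene, and 30 had a probe set, 18 of them above the limit. The mean response was positive in 16 of these 18, with a median of 0.26 log2 units beside −0.03 for all tested probe sets. It was positive in 17 of 18 in control lines (median 0.31) and in 15 of 18 in triCH1 lines (median 0.23). The 3 called of 18 were Ddit4, Gem and Nfil3, and 1.75% of all tested probe sets were called in this contrast. Each was higher in hypoxia in 6 of 6 lines. With the line as a block, 5 of the 18 other CREB target genes were called higher in the mean response, which adds Egr2 (0.75 ± 0.36 in the fit without the block, adjusted p = 0.00102 with it) and Klf4 (0.45 ± 0.23, adjusted p = 0.0231), both zinc finger transcription factors. With that block 3 were called in control lines (Ddit4, Gem and Egr2) and 2 in triCH1 lines (Ddit4 and Egr2), against 1 and 0 without it. The block also raised the shares called over the whole array. They were 3.67% in the mean response, 1.4% in control lines and 1% in triCH1 lines with it. Without it they were 1.75%, 0.831% and 0.635%. The list was drawn up with earlier results of these data known and mixes CREB targets with genes that other factors also control.

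Ddit4, an inhibitor of mTOR signalling that HIF also induces, read 1884.4, 1521.6 and 2046.9 in control normoxia and 4370.5, 4473.1 and 4622.2 in control hypoxia. It read 1955.8, 839.2 and 1269.2 in triCH1 normoxia and 3787.8, 1941.3 and 2687.0 in triCH1 hypoxia. The control groups lay far apart, while the triCH1 groups overlapped narrowly, with triCH1flox1 in normoxia above triCH1flox2_1 in hypoxia. The mean response of Ddit4 was 1.19 ± 0.20 log2 units with an adjusted p of 0.00396 in limma, and it was called in all 30 alternative settings. In control lines alone it was 1.31 ± 0.28 with an adjusted p of 0.0423, the only 1 of 18 called there. Nfil3, a bZIP repressor, had a mean response of 0.51 ± 0.11 with an adjusted p of 0.0375, from group means of 1290 ± 195 to 1780 ± 42.1 in control lines and 1110 ± 169 to 1610 ± 101 in triCH1 lines (SD, n = 3 arrays each).

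Gem, a small GTPase of the RGK family and a CREB target, was the only gene of the list called between line types. It read 246.2, 254.1 and 244.2 in control normoxia and 668.3, 439.1 and 515.5 in control hypoxia. It read 83.5, 101.0 and 169.4 in triCH1 normoxia and 143.3, 171.2 and 188.7 in triCH1 hypoxia. Every triCH1 value was under every control value, at both O2 levels, and within the control lines hypoxia did not overlap normoxia. Gem was 1 of 4 of the 18 genes that lay lower in triCH1 without overlap at both O2 levels, with Dusp1, Bdnf and Btg2, and Fos alone lay higher in this way, beside 1.77% and 1.6% of all tested probe sets. These 4 genes are named after their values were seen and were not called: in hypoxia the differences were −0.82 ± 0.23 for Dusp1, −0.73 ± 0.17 for Bdnf, −0.41 ± 0.17 for Btg2 and 0.60 ± 0.18 for Fos, with adjusted p of 0.335, 0.19, 0.565 and 0.386 in limma. For Ddit4 it was −0.73 ± 0.28 (adjusted p = 0.519, limma), and without line triCH1flox1 it was −0.97 (adjusted p = 0.0443, limma). That omission was the only 1 of 31 settings, 18 of them omissions, in which this Ddit4 difference was called. The genotype difference was negative in 14 of 18 in hypoxia, with a median of −0.24 log2 units beside 0.03 for all tested probe sets. The mean response of Gem was 0.77 ± 0.18 log2 units with an adjusted p of 0.0460 in limma. In hypoxia Gem was lower in triCH1 by −1.57 ± 0.25 with an adjusted p of 0.0391, where 0.0741% of all tested probe sets were called, and in normoxia the difference was −1.01 ± 0.25 with an adjusted p of 0.272. Its response was 1.04 ± 0.25 in control and 0.49 ± 0.25 in triCH1 lines, and the difference between them, −0.56 ± 0.36, did not pass the test (adjusted p = 1, limma).

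These calls were close to the threshold. Gem's genotype call in hypoxia was kept in 12 of 31 settings and in 4 of 18 omissions of 1 array or 1 line, namely those of the 3 single triCH1 normoxia arrays and of line triCH1flox1, with values of −1.70 to −1.41 over all omissions. Gem's mean response was called in 11 of 30 settings and in 2 of 18 omissions, and Nfil3 in 9 of 30 and 2 of 18. For Gem the 2 omissions were the triCH1flox2_2 normoxia array and line triCH1flox2_2. For Nfil3 they were the normoxia arrays of flox2_2 and triCH1flox2_2. Ddit4 in control lines was called in 16 of 31 settings and in 6 of 18 omissions, those of arrays and lines of triCH1flox1 and triCH1flox2_1. In each of these 4 results the direction was kept in every setting.

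**Figure D4:**
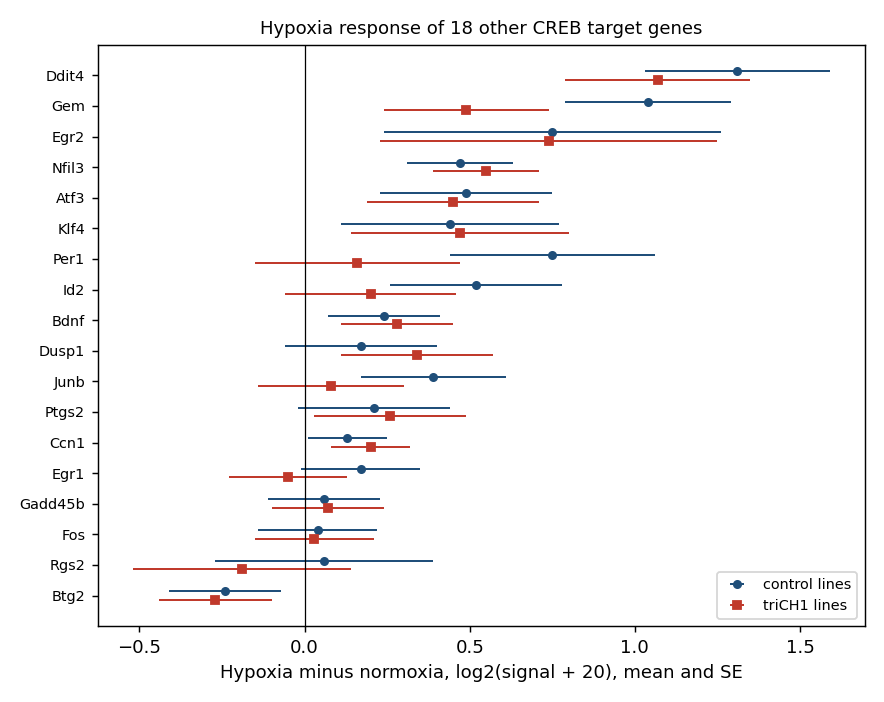
Hypoxia minus normoxia in log2(signal + 20) for the 18 other CREB targets above the limit, control lines in blue and triCH1 lines in red, mean and SE from limma, ordered by the mean response. Ddit4 (1.31 and 1.07) is at the top, and Btg2 is on the negative side in both. Gem (1.04 and 0.49) and Per1 each show a gap between the line types, and neither difference was called.

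The genes whose signal over the 12 arrays was most like that of each member, by Pearson's r of log2(signal + 20) are given as a description, since the arrays come in pairs from 6 lines. For Creb1 they were Cul3 (r = 0.97) and Pnn (0.96), for Crem Lrrc57 (0.90) and Dynap (0.87), for Sik1 Arhgef25 (0.93) and Whamm (0.88), and for Nr4a1 Kif1a (0.87) and Pdgfrb (0.83). For Nr4a2 they were Mapk6 (0.92) and Cyb5r4 (0.91), for Pde4b Nrarp (0.93) and Ccdc166 (0.90), and for Pde4d Bicc1 (0.94) and Mapk8 (0.93). Without the 2 arrays farthest from the member's median, Creb1 with Cul3 kept r = 0.95 and Pde4d with Bicc1 0.91. Sik1 with Whamm dropped to 0.39, so that this pair rested on those arrays. Nr4a2 with Mapk6 fell to 0.66 and Sik1 with Arhgef25 to 0.69, and the remaining pairs had 0.73 (Nr4a1 with Kif1a) to 0.96 (Creb1 with Pnn). Between member genes, Creb1 1423402_at and Nr4a2 1455034_at had the highest r, 0.78, and both had their highest value in the flox2_1 normoxia array.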

How the data were processed

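Expression was measured with 1 Affymetrix Mouse430_2 array (biotin label, 1 colour) for each of 12 samples. The deposited values are linear probe set intensities. Per the labels, the authors computed them by the Statistical algorithm of Affymetrix, with all arrays brought to a target signal of 500. Software version and any other normalization are not given in the sources used here. The table had 45101 probe sets, of which 64 controls were left out, and 34945 had exactly 1 gene symbol in the array annotation.

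Groups were taken from sample titles. Probe sets whose mean signal reached 100 (18903) were fitted on log2(signal + 20) in limma 3.58.1 under R 4.3.3, using lmFit, 1 mean for each of 4 groups and trended eBayes, with 8 residual degrees of freedom and 6 two-sided contrasts. Calls required an adjusted p (Benjamini-Hochberg, all tested probe sets) under 0.05. The number of arrays limits the precision. The fit without the block was tried on simulated independent arrays with known changes added to control hypoxia only. That trial did not cover the other contrasts or the pairing of arrays by line. Arrays of 1 line share the line by name and were also fitted with the line as a block; after removal of group means their correlations were −0.02 to 0.58. The member genes and all lists were chosen with earlier results of these data known. Genes were named by plan if they were members, were called in a list, were among the 2 most alike to a member, or were Atf1, Crtc1, Crtc2, Crtc3, Crebbp, Ep300, Prkaca or Prkar1a. Outside that plan, Egr2 and Klf4 were named for calls with the line as a block. Dusp1, Bdnf, Btg2, Fos, Per1 and the muscle markers were named after their values were seen. The alternatives were other pseudocounts, filters, normalizations and variance models, blocks, and omission of arrays or lines. Promoters came from RefSeq, searched with Python 3.11.15.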

Additional observations from a re-analysis of the deposited data

Results flagged for a closer look

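For the Creb1 probe set 1423402_at, the hypoxia response was negative in all 3 control lines, at −0.42, −0.47 and −0.08 log2 units in flox1, flox2_1 and flox2_2. It was positive in all 3 triCH1 lines, at 0.07, 0.02 and 0.06 in triCH1flox1, triCH1flox2_1 and triCH1flox2_2. These were small values, since the mean response in triCH1 lines, 0.05 ± 0.20 (SE, limma), was less than its SE. The difference in mean response, triCH1 minus control, was 0.37 ± 0.28 (SE) and did not pass limma's test (adjusted p = 1). It ranged from 0.19 (without the flox2_1 normoxia array) to 0.51 (without the flox2_2 normoxia array) when single arrays or lines were left out of the Creb1 fit. By sign alone, lines of the 2 types went opposite ways throughout in 1 of 13 tested members and in 0.889% of all tested probe sets. No other tested Creb1 probe set had this pattern.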

How the results depend on the processing

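The count of called members was 0 in all 184 alternative settings, among them the fits with the line as a paired replicate block (0 calls, lowest adjusted p 0.113 for Pde4d). Of 2320 member values under alternatives, 198 changed sign and 8 of these had a main value beyond its SE. A sign change of a main value within its SE of 0 was not counted as a reversal. The Sik1 control response (main 0.70) ranged from −0.12 to 1.14 when any of the 6 lines or 12 arrays was left out (18 omissions), and was −0.12 without the flox2_1 normoxia array. The Nr4a2 1455034_at control response (main −0.41) was 0.04 with 1 value per gene, and ranged from −0.84 to 0.12 over the omissions, with 0.12 without the flox2_1 normoxia array and 0.03 without line flox2_1. The Nr4a2 1450749_a_at control response (main 0.50) was −0.01 in lines with a floxed Ep300 allele and ranged from −0.10 to 0.94. The mean response of Creb1 1421582_a_at (main 0.19) was 0.00 in lines with a floxed Ep300 allele. The cause was not tested.

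Alternatives for the other CREB targets and for Gem were chosen after seeing the data. The low signals limit Nr4a3, Sik1, Nr4a2 and Pde4b most, where signals near the limit of 100 leave wide intervals.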
